A study of Mus musculus with 12 samples.

Results

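The numbered zinc finger protein genes of the mouse, whose symbols are Zfp and a number, were described across a labelling time course in NIH-3T3 cells, an immortalised line of wild-type mouse fibroblasts. The members were chosen by symbol and by a mean read count of at least 100 over the 12 libraries, leaving out Zfp36. This selected 179 of 17419 genes in the table. The table held 351 numbered Zfp genes, 171 of them under the minimum. Just inside it were Zfp426, Zfp790 and Zfp1, with mean counts of 102.33, 103.08 and 106.0, and just outside were Zfp316, Zfp65 and Zfp959, with 97.96, 97.1 and 94.9.

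Most of these genes code for C2H2 zinc finger proteins, in which each finger is folded around a zinc ion and contacts a few bases of DNA. A large group also carries a KRAB domain, which recruits the corepressor Trim28 (KAP1) and histone methyltransferases to silence retroelements and imprinted regions. Many lie in tandem clusters that arose by duplication, and messenger RNAs of zinc finger transcription factors are known for short lives.

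The cells were given no 4-thiouridine (no4sU), or 4sU at 800 µM, for a labelling time of 15, 30, 60, 90 or 120 min, with replicates A and B in each of the 6 groups. 4sU is built into new RNA in place of uridine. In SLAM-seq, iodoacetamide alters it so that it is read as C, and the new-to-total ratio (NTR), the fraction of the transcripts of a gene that arose while the label was present, is estimated from these conversions. The series title gives the aim, the effect of the length of labelling on quantification. The labels do not say that replicates were separate cultures, so p-values measure the spread between these libraries, which may be technical.

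Libraries held 9917026 to 13739380 reads. The members had a median mean count of 245 (range 102.3 to 3882), against 553 for the 9065 genes of the table that reach the same minimum, the set called all genes here. Shares of all genes called in a fit are instead of the genes tested in it, which include genes under that minimum. The 13.8% quoted for falls and the shares by uridine content are of the 9065. Between 0.542% and 0.639% of a library's reads belonged to members. All 12 fibroblast markers listed were at a mean count of at least 100, and 0 of 10 markers of epithelial, immune, endothelial and pluripotent cells were (7 in the table, summed level 5.92 to 8.98 CPM, which are counts scaled to a common library size). The unlabelled libraries stood apart from each other: 136 of 179 members were lower in no4sU A than in B, with a median log2 ratio of -0.15 against 0.0012 over all genes. Comparisons therefore start from the 15 min libraries, and those with no4sU are given with and without each of its libraries.

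New RNA made up a larger fraction of the Zfp transcripts than of most other transcripts at every duration. The median NTR of the members was 0.0208 ± 0.00856 (SD, n = 2 libraries) after 15 min of labelling, or 0.0363 from the authors' posterior mean in place of the maximum. It was 0.161 ± 0.00771 after 30 min (0.104 in members whose mean count was 500 or more) and 0.463 ± 0.0151 after 60 min. The 90 min libraries gave 0.691 ± 0.0334 and the 120 min libraries 0.851 ± 0.00410. All genes had medians of 0.0101, 0.0521, 0.155, 0.244 and 0.354 at the same durations. The 15 min values are near the floor. There the authors' 90% interval of the NTR had a median width of 0.0489 in members and 0.0250 in all genes, wider than both medians. The values of the A and B libraries of the members did not overlap those of other genes at any duration. The 2 libraries of a group are too few for a permutation test to pass 0.05, and the members were chosen with earlier results known, so no test is given.

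**Figure D1:**
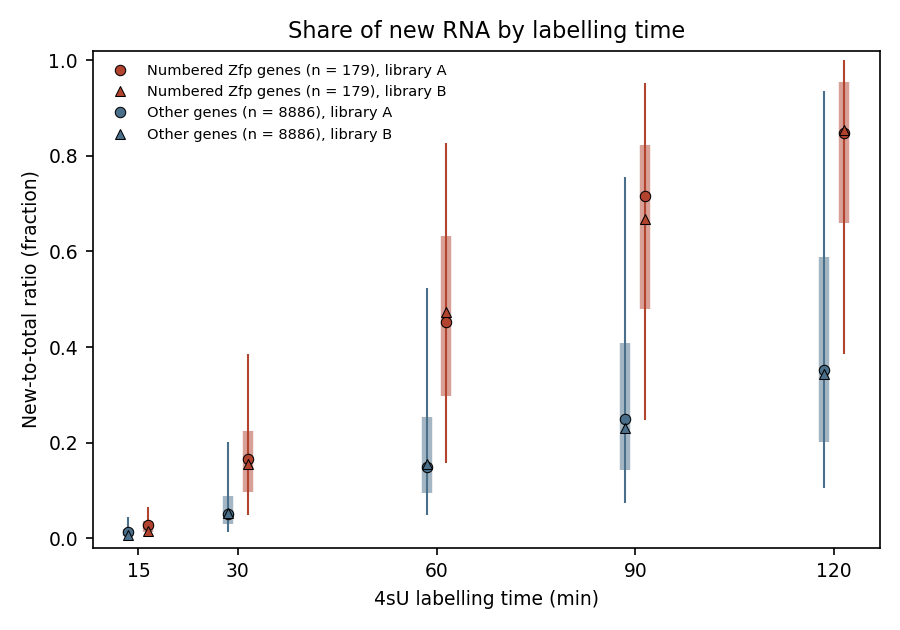
New-to-total ratio (fraction) against 4sU labelling time (min) for the 179 numbered Zfp genes and for 8886 other genes that reach the same count minimum. Circles and triangles are the medians of the A and B libraries, thick bars run from the lower to the upper quartile over genes and thin lines from the 0.05 to the 0.95 quantile. The Zfp median reached 0.851 at 120 min.

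At 120 min the NTR of a member (mean of both libraries) ranged from 0.201 to 1, with quartiles of 0.660 and 0.955. It was above the all-gene median in 172 members (96.1%) and above the all-gene 90th percentile of 0.852 in 92 (51.4%). The estimate was 1 in both libraries for 15 members (8.38%), against 132 of all genes (1.46%). At the other end, 22 members were below 0.5 and 7 were below the all-gene median. The authors' 90% interval of the NTR at 120 min had a median width of 0.132 in members and 0.0832 in all genes, so single members are less precisely known. In the 38 members whose mean count was 500 or more the median NTR at 120 min was 0.736, still above that of all genes.

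If levels are steady, an NTR gives an apparent half-life, which should then not depend on the duration. For the members its median was 118 min ± 5.87 (SD, n = 2) from the 30 min libraries and 67.1 ± 2.83 from those of 60 min. The longer durations gave 56.0 ± 4.09 (90 min) and 51.9 ± 4.45 (120 min). All genes had 368, 247, 224 and 198 min. Of 133 members with a half-life at 30, 60 and 120 min, 132 (99.2%) had a shorter one at 120 than at 30 min, and so had 92.8% of 7838 genes. Half-lives were computed only for an NTR between 0.01 and 0.99. The 120 min medians therefore rest on 156 and 140 members in A and B, without the members whose RNA was almost wholly new.

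Of the 15 members tied at an estimate of 1 in both 120 min libraries, Zfp281, Zfp568, Zfp292, Zfp84, Zfp9 and Zfp574 had the highest 0.05 quantiles, which broke the tie. Zfp281, which helps to control the exit from pluripotency, had an NTR of 0.0730 in A and 0.0588 in B after 15 min. The 30 min values were 0.318 and 0.291, those of 60 min 0.804 and 0.840, and those of 90 min 0.967 and 0.934. Replicates were close at each step from 30 min on, and no library overlapped a library of another duration. Its 0.05 quantile at 120 min was 0.948 in A and 0.961 in B, so the authors' interval allows some old RNA. Zfp84 reached 0.954 and 1 already at 60 min. Zfp292 was slower, with 0.147 and 0.155 after 30 min and 0.615 and 0.705 after 60 min. The apparent half-life at 60 min was 24.1 min ± 1.98 for Zfp281 (SD, n = 2) and 38.8 ± 6.75 for Zfp292.

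The lowest NTR belonged to Zfp106, Zfp692, Zfp706, Zfp277, Zfp326 and Zfp239. Zfp106, an RNA-binding protein needed by motor neurons, had an NTR of 0.0952 and 0.0913 after 60 min and of 0.196 and 0.206 after 120 min. Its apparent half-life at 120 min was 370 min ± 14.4 (SD, n = 2), above the all-gene median of 198 min. Zfp692 was at 0.229 and 0.194 at 120 min, and Zfp706 at 0.276 and 0.296. Zfp277 was at 0.327 and 0.247. Zfp326, a partner of RNA polymerase II in splicing, was at 0.288 and 0.329, and Zfp239 at 0.296 and 0.332. The intervals of Zfp692 in A (0.167 to 0.310) and Zfp706 in A (0.250 to 0.304) overlapped, so the order among these 6 is not resolved. Of the 6, Zfp692, with 5 fingers, and Zfp239, with 7, have more than 3 by the motif used below.

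Members with more fingers had a higher NTR. C2H2 fingers were counted as the pattern C, 2 or 4 residues, C, 12 residues, H, 3 to 5 residues, H in the translated GENCODE M21 transcript of the 176 members with a coding one. With 0 to 3 fingers (29 members) the median NTR at 120 min was 0.619 ± 0.0118 (SD, n = 2 libraries), with 4 to 9 (59 members) it was 0.813 ± 0.00403, and with 10 or more (88 members) 0.911 ± 0.0143. Libraries of the 3 classes did not overlap. The class with fewest fingers also had higher counts, with a median of 431 against 234 and 212. Among members whose mean count was 200 or more the medians were 0.634, 0.789 and 0.895 in the same order. Over members, Spearman's rho of finger number and NTR was 0.303 (n = 176, a description over genes that share libraries and ancestry). A KRAB-like pattern was found in 56 members, with a median NTR of 0.871 ± 0.0111 against 0.843 ± 0.0140 in the 120 without. The A and B medians of these sets did not overlap. Among members with 10 or more fingers the order was the other way, 0.884 with and 0.926 without the pattern. The pattern is strict and leaves out known KRAB proteins such as Zfp568, and a looser pattern matched 63 members (median 0.883).

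**Figure D2:**
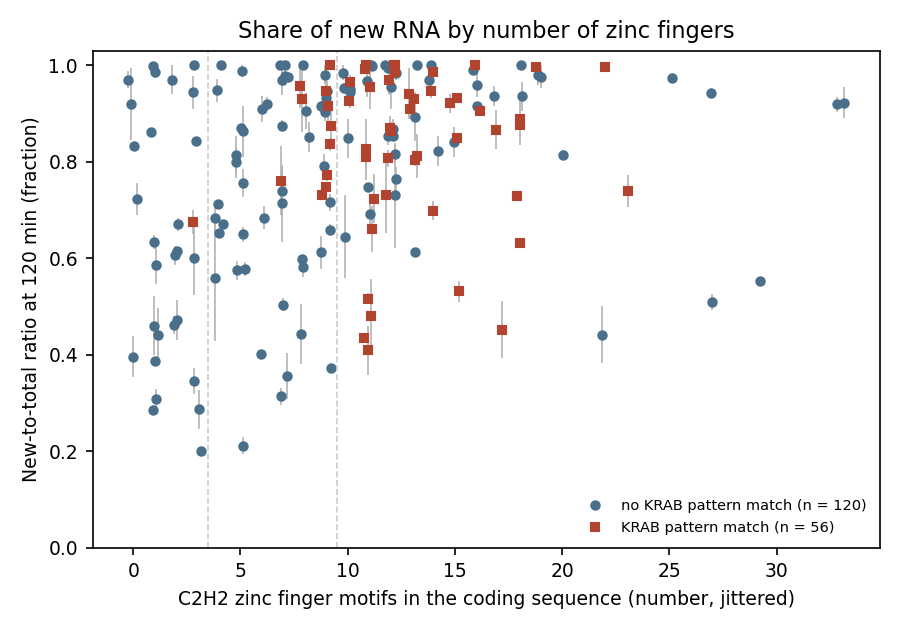
New-to-total ratio at 120 min (fraction, mean of A and B) against the number of C2H2 motifs for 176 members, with a grey line joining the A and B values of a gene. Squares match the KRAB pattern, circles do not, and dashed lines separate the classes with medians of 0.619, 0.813 and 0.911. Values near 1 occur in all 3 classes, while the 4 members below 0.3 have 1 to 5 motifs.

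Zfp RNA levels were lower after 120 min of 4sU than after 15 min. Between these groups 38 of 179 members fell (21.2%) and 3 rose (1.68%) at an adjusted p below 0.05 in edgeR's quasi-likelihood test. Over all 11564 genes tested, 11.3% fell and 7.93% rose, and among the 9065 genes that reach the count minimum 13.8% fell. In bulk RNA, fewer cells and less RNA per cell cannot be told apart. The members' median log2 fold change was -0.16 against 0.01 for all genes tested, and 148 members (82.7%) were below 0, against 48.7% of all genes. All 179 members passed the filter on low counts. The 120 and 15 min libraries did not overlap in CPM in 73.2% of members and 71.9% of all genes, with 120 min the lower in 63.1% and 35.5%. Among the 38 that fell, the smallest log2 fold change was -0.25 and the median -0.36. DESeq2 called 22 of the 38 and no other member as lower (12.3% of members, 5.16% of all genes it tested).

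These calls depend on how newly made RNA is treated. In an alternative that raised the new share of every count until the fold change had no rank correlation with NTR over all genes (a loss of 34.1% in 120 min A and 35.6% in B), 1 member was lower and 5 were higher (0.559% and 2.79% of members, against 1.24% and 0.835% of all genes), and the members' median log2 fold change was 0.07. Fits that left out a single library called fewer members. The members' median log2 fold change in them ranged from -0.17 to -0.16. A larger share of members than of all genes tested was still called lower in each, by a smaller margin than in the main fit. The genes tested include genes under the count minimum. Shares at that minimum were not computed for these fits, so the margin over genes of like count is not known. For calls in either direction, given next, the difference from all genes was smaller or absent. Without 15min A edgeR called 9 members (5.03%, against 5.62% of all genes), without 120min A 13 (7.26% against 8.70%), without 120min B 13 (7.26% against 6.03%) and without 15min B 19 (10.6% against 8.86%). In these fits 9, 13, 12 and 19 of the original 41 were called again.

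**Figure D3:**
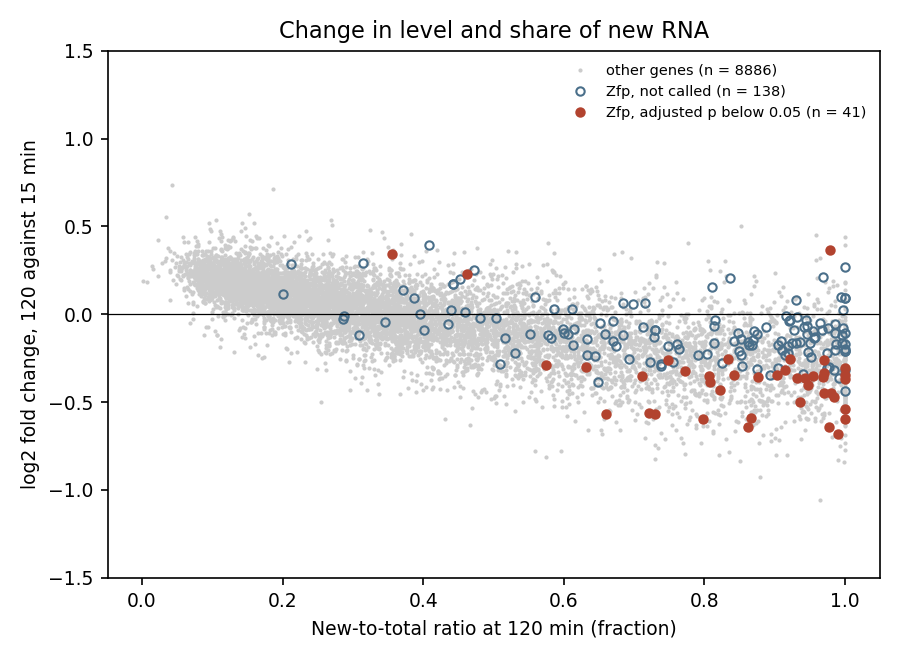
Log2 fold change in level, 120 against 15 min, against the new-to-total ratio at 120 min (fraction). Grey dots are 8886 other genes, open circles the 138 members not called and filled circles the 41 members with an adjusted p below 0.05. The 38 called falls have an NTR from 0.575 to 1, and 2 other genes lie outside the vertical range.

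Falls were found where much of the RNA was new. The 38 members that fell had a median NTR of 0.918 at 120 min, and the lowest was 0.575. Members with an NTR of 0.9 to 1 had a median log2 fold change of -0.20 (77 members, 27.3% fell), those of 0.75 to 0.9 had -0.22 (36, 27.8%), those of 0.5 to 0.75 had -0.14 (44, 15.9%) and those of 0.25 to 0.5 had 0.06 (20, of which 0 fell). Other genes fell more often within each of these bands: 50.7% fell from 0.9 to 1 (594 genes, median -0.28), 45.6% from 0.75 to 0.9, 27.8% from 0.5 to 0.75 and 5.02% from 0.25 to 0.5. A larger share of the members than of other genes lay in the 0.9 to 1 band, and the difference within bands was not tested. Members of the 0.9 to 1 band had a lower median count than those other genes (230 against 352). Whether depth accounts for the difference was not tested. Over members the rho of fold change and NTR was -0.340 (n = 179), against -0.763 over all genes (n = 9065), and both measures come from the same libraries.

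The largest falls were those of Zfp799, Zfp213, Zfp449, Zfp654, Zfp568 and Zfp994. Zfp799 (chr17:32815449-32830261, minus strand, GRCm38) was at 12.6 and 12.7 CPM in the A and B libraries of 15 min. It was at 11.3 and 11.98 after 30 min, 10.2 and 10.2 after 60 min, and 11.2 and 9.37 after 90 min. The 120 min libraries were lowest, with 8.09 and 7.73. Its unlabelled libraries, at 9.54 and 11.3, lay between these ends. The log2 fold change, 120 against 15 min, was -0.68 ± 0.137 (SE, edgeR adjusted p = 0.00222), with an NTR of 0.991. Zfp568, a KRAB protein that silences a placental promoter of Igf2, went from 32.8 and 35.0 CPM after 15 min to 22.4 and 22.5 after 120 min. Both ends were tight, and it had an edgeR adjusted p of 0.000525 (log2 fold change -0.59 ± 0.0981). Zfp213 was at 17.4 and 16.5 CPM and then at 10.97 and 10.8 (log2 fold change -0.64). Zfp449 was at 14.4 and 11.8 CPM and then at 8.92 and 8.03 (-0.64). Zfp654 was at 20.7 and 18.5 CPM and then at 12.5 and 13.5 (-0.59). Zfp994 was the least secure of the 6. Its libraries, at 13.4 and 9.81 CPM and then at 5.97 and 9.13, varied most (log2 fold change -0.59 ± 0.197, edgeR adjusted p = 0.0406), and DESeq2 did not call it. Its log2 fold change was -0.33 without 120min A, -0.35 without 15min A and -0.96 without 120min B. Leaving out 15min A ended the calls of Zfp449, Zfp654 and Zfp994, leaving out 120min A that of Zfp994, and leaving out 120min B that of Zfp449.

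The 3 rises were in Zfp629, Zfp523 and Zfp207. Zfp207 (BuGZ), which binds microtubules and the spindle checkpoint protein Bub3, was at 240 and 244 CPM after 15 min and 254 and 252 after 60 min. It reached 272 and 267 after 90 min and 282 and 285 after 120 min. Replicates were close throughout, and the log2 fold change was 0.23 ± 0.0513 (SE, edgeR adjusted p = 0.00459). Its NTR was 0.462, low among members. It also had the highest level per length of all members, 78.5 CPM per kb, ahead of Zfp91, a ubiquitin ligase, with 42.9 and Zfp106 with 37.4. Zfp629 differed from the other rises in its NTR of 0.980. It was at 13.6 and 11.9 CPM and then at 16.1 and 16.8 (0.36 ± 0.119, edgeR adjusted p = 0.0369). Zfp523 was at 14.1 and 15.8 CPM and then at 18.6 and 19.2, with an NTR of 0.356 (0.34, edgeR adjusted p = 0.0467). The calls of Zfp629 and Zfp523 were lost when any 1 of the 15 and 120 min libraries was left out, in DESeq2 and with library size as the only scaling. That of Zfp207 was lost without 15min A or without 120min B.

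**Figure D4:**
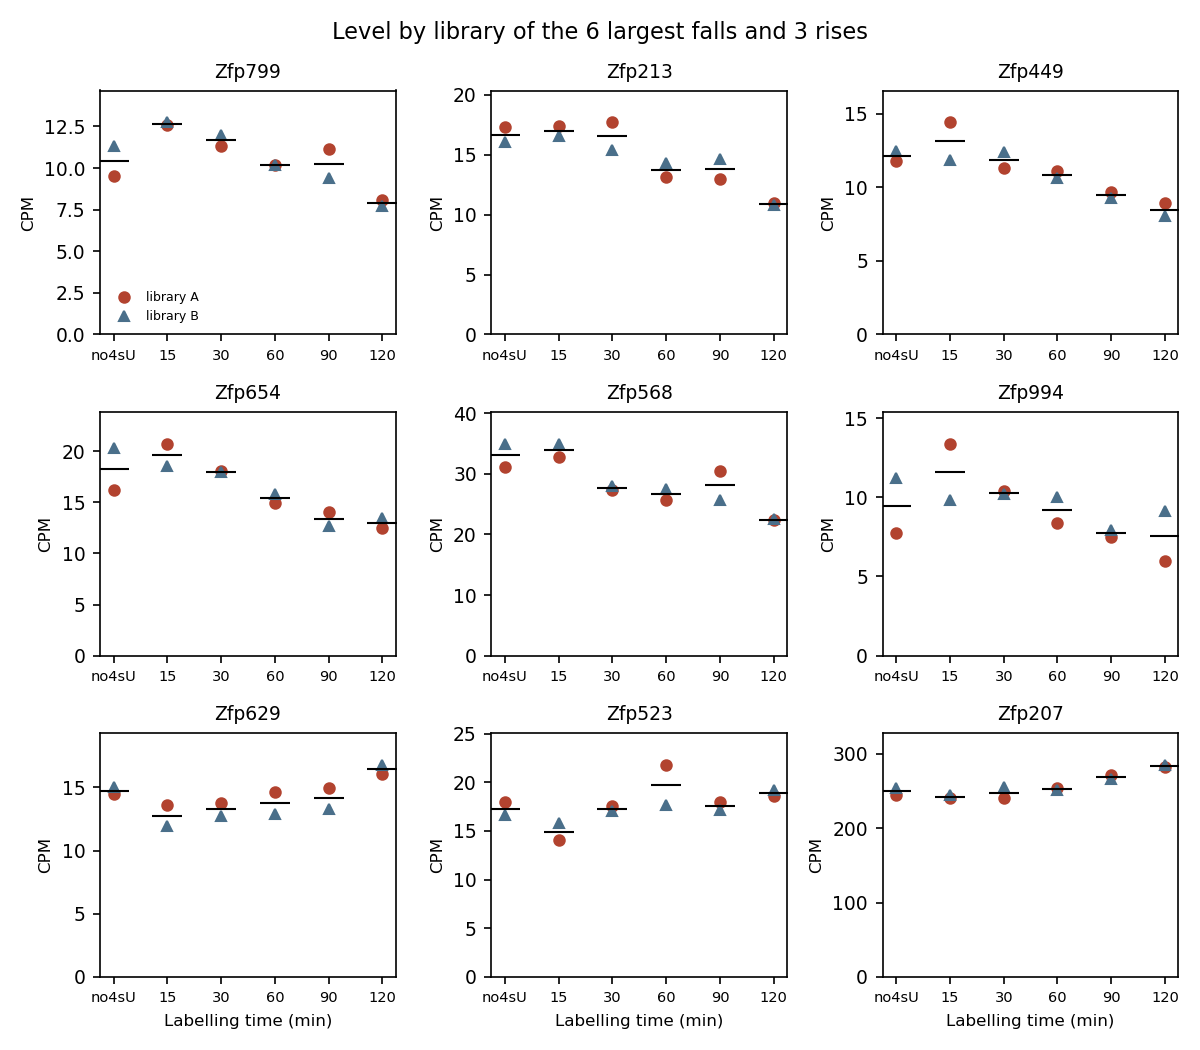
Level (CPM, axes from 0) in the 12 libraries of the 6 members with the largest falls and the 3 that rose, by labelling time (min) with the unlabelled libraries first. Circles are A, triangles B and dashes their mean. At 120 min Zfp799 is at 8.09 and 7.73 CPM, below its other libraries, and Zfp207 at 282 and 285, above its other libraries.

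Zfp799 and Zfp629 have similar NTRs and many fingers (16 and 19) but opposite changes, and they differ in base content. The pair was picked after its values were seen. The 3 consecutive finger-coding units of 84 bases printed for each show this difference. They come from the GENCODE M21 transcripts and run 5′ to 3′ on the coding strand, with T, which is uridine in the RNA and the base that 4sU replaces, in capitals.
Zfp799 finger 1: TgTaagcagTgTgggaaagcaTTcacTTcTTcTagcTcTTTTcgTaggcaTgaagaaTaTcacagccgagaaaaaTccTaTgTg
Zfp799 finger 2: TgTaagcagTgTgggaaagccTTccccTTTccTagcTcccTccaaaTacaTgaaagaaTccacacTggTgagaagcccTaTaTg
Zfp799 finger 3: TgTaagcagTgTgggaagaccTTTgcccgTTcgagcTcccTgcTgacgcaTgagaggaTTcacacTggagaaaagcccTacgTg
Zfp629 finger 1: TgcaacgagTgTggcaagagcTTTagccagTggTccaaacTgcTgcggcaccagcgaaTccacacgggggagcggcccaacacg
Zfp629 finger 2: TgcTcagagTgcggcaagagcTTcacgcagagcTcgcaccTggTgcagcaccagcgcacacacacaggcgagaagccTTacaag
Zfp629 finger 3: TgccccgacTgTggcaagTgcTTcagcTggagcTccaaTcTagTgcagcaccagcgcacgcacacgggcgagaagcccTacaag
The Zfp799 units hold 24, 20 and 18 uridines of 84 bases, and the Zfp629 units 11, 10 and 12. Over all finger units of each gene the share was 26.0% in Zfp799 and 16.9% in Zfp629, and over the whole transcript 30.2% and 20.3%.

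Uridine content varied with the change in level among the members. It ranged from 13.8% to 34.1% of the transcript (178 members), and its rho with the log2 fold change was -0.376, against -0.258 over all genes. Its rho with NTR was 0.0713. In the 45 members richest in uridine (the upper 25%) 22 fell (48.9%), with a median log2 fold change of -0.29 and a median NTR of 0.895. In the 45 poorest 6 fell (13.3%), with -0.09 and 0.872. Over all genes within the same bounds, 22.9% fell among the 2211 uridine-rich and 5.61% among the 2354 uridine-poor. Within members of an NTR over 0.9 the rho with fold change was -0.356 (n = 77). The uridine-rich 45 also had longer genes (median 4779 against 3184 bases) and more fingers (11 against 8), whose part in the difference was not tested. These splits were made after the data were seen.

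**Figure D5:**
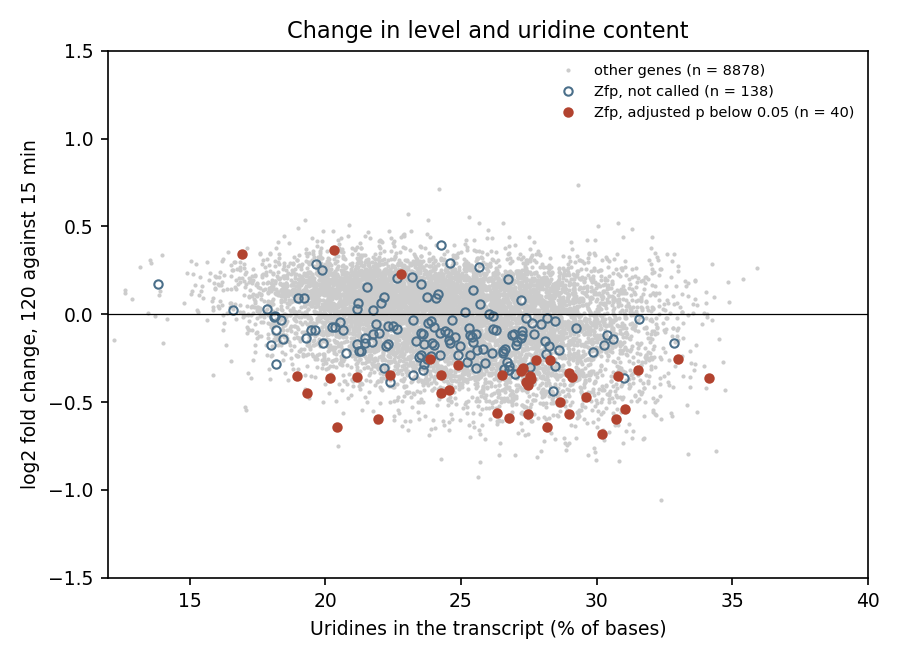
Log2 fold change, 120 against 15 min, against the uridine content of the transcript (% of bases) for 178 members and, in grey, 8878 other genes. Filled circles have an adjusted p below 0.05. The called falls lie mostly toward the right, with 22 of them among the 45 members richest in uridine, and 2 other genes lie outside the vertical and 1 outside the horizontal range.

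By role, members that act on RNA, ribosomes or the spindle had lower NTRs than those that regulate transcription. The first list of 9 had a median NTR at 120 min of 0.586 ± 0.0558 (SD, n = 2). Of these 1 fell and 1 rose, Zfp207, where 21.2% of members and 13.8% of all genes fell. The member that fell, Zfp622, matures the large ribosomal subunit. It went from 52.7 and 55.5 CPM to 43.5 and 41.8, with a log2 fold change of -0.34 ± 0.0763 (edgeR adjusted p = 0.00412) and an NTR of 0.842, and it lost its call without 15min B or 120min B. Zfp598, the ubiquitin ligase that senses collided ribosomes, was at 95.03 and 98.7 CPM and then at 107 and 99.7 (adjusted p = 0.299, edgeR), with an NTR of 0.387. Zfp638, which has been tied to splicing and to silencing of unintegrated viral DNA, had an NTR of 0.606 and a log2 fold change of -0.11. Zfp830, a splicing-associated protein, was an exception in this list with an NTR of 0.998. Zfp106, Zfp207, Zfp326, Zfp598, Zfp622 and Zfp638 have 1 to 3 fingers, and the class of 0 to 3 had a median NTR of 0.619. The regulator Zfp281 has 3 fingers too, with an NTR of 1. Whether finger number or count accounts for the lower NTRs of this list was not tested.

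The list of developmental and transcriptional regulators had 12 of 14 genes among the members and a median NTR of 0.913 ± 0.0647. Of the 12, 4 fell, where 21.2% of members and 13.8% of all genes fell. Zfp503 had the largest fall of the list, from 43.9 and 36.2 CPM to 29.4 and 29.4 (log2 fold change -0.45, edgeR adjusted p = 0.00902). Zfp148, a Krüppel-type regulator that binds GC-rich promoters, was at 73.4 and 68.4 CPM and then at 54.1 and 57.0 (-0.35, edgeR adjusted p = 0.00485). Zfp143, which binds promoters and anchors of chromatin loops, was at 17.0 and 17.4 CPM and then at 13.2 and 13.6 (-0.36, edgeR adjusted p = 0.0434). Zfp281 fell too (-0.37, edgeR adjusted p = 0.0311). DESeq2 called neither Zfp143 nor Zfp281, and leaving out any 1 of the 15 and 120 min libraries ended both calls. Zfp148 lost its call without 15min A or 120min A. Zfp217, a partner of corepressor complexes, had an NTR of 1 in both libraries without passing the test (-0.11). Zfp462 (33 fingers) had an NTR of 0.923 and a log2 fold change of -0.03, and Zfp521 (27 fingers) an NTR of 0.509 and -0.28. The lowest NTRs of the list beside Zfp521 were those of Zfp704 (0.460), Zfp384 (0.599) and Zfp335 (0.613). Zfp771, which is not in the list, had an NTR of 0.443 and a log2 fold change of 0.17.

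Of 6 listed repressors of imprinted regions and retroelements, 5 were members, with a median NTR of 0.720 ± 0.0284. Of the 5, 1 fell, Zfp568, where 21.2% of members and 13.8% of all genes fell. Zfp57 and Zfp445, which protect imprinted methylation, had NTRs of 0.674 and 0.765 and log2 fold changes of -0.18 and -0.20. Zfp809, which silences murine leukaemia proviruses, had 0.761 and -0.17, and Zfp932 had 0.531 and -0.22. None of these 4 passed edgeR's test of 120 against 15 min (Zfp445 had an adjusted p of 0.0893). Against no4sU, with both unlabelled libraries in the fit, Zfp57 was lower at 120 min (log2 fold change -0.28, edgeR adjusted p = 0.0181). Values of Zfp57 without each no4sU library are not given here. Their corepressors had a lower median NTR. For 19 genes of the Trim28, Setdb1 and HUSH machinery it was 0.349 ± 0.00170 (range 0.118 to 0.920), near the 0.354 of all genes. Atf7ip (0.920), Daxx (0.813) and Morc3 (0.793) were above the repressors' median. Of the 19, 4 fell (Atf7ip, Morc2a, Morc3 and Tasor) and 1 rose (Chd3, NTR 0.118), where 13.8% of all genes fell. Trim28 itself had an NTR of 0.349. Other finger families had NTRs nearer to those of the members, and their falls are to be read against the 13.8% of all genes. The medians were 0.945 for 14 Zfp genes with a letter suffix (5 fell), 0.909 for 29 Zbtb genes (5 fell), 0.779 for 6 Zkscan genes (1 fell) and 0.974 for 11 Klf genes (7 fell), and 0 rose in these 4 families. The 3 Zscan genes had 0.872, and 1 fell.

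Members that lie together in the genome did not all have similar values. Of the 178 members with a location in GENCODE M21, 42 were on chromosome 7, of which 7 fell (16.7%) and 1 rose. On chromosome 17 were 23, of which 9 fell (39.1%) and 1 rose. Falls here and in the clusters are to be read against 21.2% of members and 13.8% of all genes. In 12 clusters of at least 3 members, with gaps of at most 200 kb, lay 48 members. A cluster of 8 at chr7:29768552-30169750, with Zfp568 and Zfp84, had NTRs from 0.849 to 1, and 1 of its members fell. A cluster of 5 at chr17:21926960-22456689 (Zfp942, Zfp943, Zfp994, Zfp944 and Zfp946) had NTRs from 0.435 to 0.866, and 3 fell. All 5 of these had counts that were not whole numbers, as 128 members (71.5%) and 84.8% of all genes did, so reads may have been divided between similar genes and their values are uncertain. Zfp91 stood in the table under 2 gene IDs with log2 fold changes of -0.29 and -0.30, each counted among the 38 falls. Whether they share reads was not tested.

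Fewer members were called at the shorter durations. At 90 against 15 min 3 fell, in a test where 1.01% of all genes fell. They were Zfp654 (log2 fold change -0.56), Zfp507 (-0.42) and Zfp330 (-0.36). The last 2 were named after their values were seen. Zfp330 was at 40.6 and 44.7 CPM after 15 min, 33.3 and 33.4 after 90 min and 29.0 and 28.8 after 120 min. It was also the member that stayed lower at 120 min under the raised new share (-0.36). None of the 3 calls at 90 min held in edgeR when any 1 of the 15 or 90 min libraries was left out. The members' median log2 fold change then ranged from -0.15 to -0.12. At 60 and at 30 against 15 min edgeR called 0 members, where 0.0346% and 0% of all genes tested were called. An unadjusted p below 0.05 was found for 29 and 6 of 179 members, and for 716 and 249 of the 11564 genes tested. DESeq2 called 0 members in both. Its unadjusted p was below 0.05 for 12 and 1 members, and for 291 and 37 of 17099 genes tested. The members' median log2 fold change was -0.02 for 30 min, -0.08 for 60 min and -0.13 for 90 min. These comparisons share their 15 min libraries.

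Against no4sU, 26 members fell at 120 min (14.5%) and 3 rose, where 8.78% of all 11564 genes tested fell and 5.43% rose. Of the 9065 genes that reach the count minimum, 952 fell and 598 rose. Of the 26, 20 were also among the 38 falls against 15 min, and both comparisons share the 120 min libraries. The 3 rises were Zfp106, Zfp207 and Zfp771. Zfp106 was at 273 and 329 CPM without 4sU and at 372 and 349 after 120 min, and Zfp771 at 11.4 and 5.73 without 4sU and at 12.8 and 12.8. In both, the unlabelled libraries differed more than the labelled ones. Without no4sU A the test called 72 members (69 lower), or 40.2% against 30.2% of all genes. Without no4sU B it called 21 (15 lower), or 11.7% against 16.2%, without 120min A 6 (3.35% against 3.87%) and without 120min B 7 (3.91% against 3.99%). For calls in either direction the members' share was thus above that of all genes tested in the main fit and without no4sU A. It was below that of all genes tested in the other fits. The share called lower was above that of all genes tested in each of these fits. Among genes that reach the count minimum, the members' share called in either direction in the main fit was not above that of all genes. Shares at that minimum were not computed for the other fits. The members' median log2 fold change was -0.20 without no4sU A and -0.04 without no4sU B. It was -0.13 without 120min A and -0.14 without 120min B. At 15 min against no4sU edgeR called 0 members and 0% of all genes tested, and DESeq2 also called 0 members. In edgeR 9 of 179 members and 618 of 11564 genes tested had an unadjusted p below 0.05. In DESeq2 these were 5 members and 246 of 17099 genes. Without no4sU B 21 members were called, 18 of them higher at 15 min (11.7% of members, 11.4% of all genes), and without no4sU A 1 (0.559% and 0.461%).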

How the data were processed

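RNA of 12 NIH-3T3 libraries was measured by SLAM-seq. The submitters' processing notes name cutadapt, Bowtie2 2.3.0 and STAR 2.7.10b, and no build, annotation or strand setting was found (not given in the sources used here). Per gene and library the authors deposited estimated counts, unscaled, of which 20.4% were not whole (tolerance 1e-06). They were rounded for tests. The authors deposited the NTR as a fraction (per the file headers a posterior maximum, a mean, and quantiles 0.05 and 0.95), and 2 columns each a score, the alpha and beta parameters, which were not used. The posterior maximum was used here.

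All counts were fitted with edgeR 4.0.16 (R 4.3.3): filterByExpr (11564 genes), TMM (factors 0.970 to 1.02), a quasi-likelihood fit over 12 libraries, Benjamini-Hochberg adjustment over all genes tested and a threshold of 0.05. CPM use TMM library sizes, and the SE is the absolute log2 fold change over the square root of F. DESeq2 1.42.0 was the alternative tool. The test script was tested on simulated data. Apparent half-life was ln 2 times duration over -ln(1-NTR). Locations, uridine content and fingers came from GENCODE M21 (GRCm38), matched by gene ID for 178 members. A transcript per gene was taken by APPRIS rank, then coding length. Translated transcripts took the place of the RefSeq proteins that had been planned. The KRAB pattern was F, 4 residues, W, 4 to 16 residues, LY, 2 residues, VM, any residue, E. Depth limits members with low counts. SDs cover 2 libraries.

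Members, lists and alternatives were chosen with earlier results of these data known. Genes were named by rule: the 6 largest falls and up to 4 rises past the threshold at 120 against 15 min with no overlap of libraries (3 rises qualified), the 6 highest and 6 lowest NTRs, the 3 highest levels per length, and listed genes with a known role. Of these, Zfp423 was not analysed here. Python 3.11.15, numpy 2.4.6, pandas 2.3.3 and matplotlib 3.10.9 were used.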

Additional observations from a re-analysis of the deposited data

How the results depend on the processing

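For 120 against 15 min the 41 called members were 22.9%, against 19.3% of all genes tested. Of the 9065 genes that reach the count minimum, 1254 fell and 868 rose, and the members' share was not above theirs. Shares of all genes in this section are of the genes tested in each fit, which include genes under that minimum. With only the 2 groups compared the 41 became 67 (37.4% against 33.6%), of which 61 were lower. A fit without the no4sU libraries, chosen after seeing the data, gave 65 (36.3% against 32.1%), of which 58 were lower. DESeq2 gave 23 (12.8% against 8.42%), and scaling up the labelled part gave 6 (3.35% against 2.07%). Leaving out a library gave 9 to 19. For 90 against 15 min the 3 (1.68%, against 1.06% of all genes) became 5 with RLE size factors (2.79% against 1.18%). Library size only gave 10 (5.59% against 3.02%), and no filter on low counts gave 14 (7.82% against 2.41%). With only the groups compared 31 were called (17.3% against 9.60%), and without the no4sU libraries 28 (15.6% against 9.33%). The labelled part scaled up gave 0, against 0.0603% of all genes tested (15 members and 672 of 11617 genes had an unadjusted p below 0.05). Without any single library the members' median log2 fold change ranged from -0.15 to -0.12. For 60 against 15 min the 0 became 5 with only the groups compared (2.79%, against 1.27% of all genes). A fit without the no4sU libraries gave 3 (1.68% against 0.894%). For 120 min against no4sU the 29 became 3 with only the groups compared, 13 with DESeq2, 8 with the labelled part scaled up (7 higher), and 6 to 72 without single libraries. For 15 min against no4sU the 0 became up to 21 without single libraries, from 0. The cause of these moves was not tested. Library size as the only scaling shifted the median of all genes by -0.057 (log2) at 120 against 15 min. Then 56 members fell and 1 rose (31.3% and 0.559%, against 16.1% and 3.68% of all genes).

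With the replicate letter as a block, 44 members (24.6%, against 20.0% of all genes) were called at 120 against 15 min. At 90 against 15 min 6 were called (3.35% against 1.35%), and at 120 min against no4sU 31 (17.3% against 15.0%). The deviations of same-letter libraries were weakly correlated (from -0.042 to 0.068 over 15 pairs, and from 0.000245 to 0.068 over the 10 pairs of labelled groups). These values cannot exclude a shared batch, since noise in single libraries also lowers them.

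With the posterior mean in place of the maximum, the median NTR of the members was 0.0363 at 15 min and 0.170 at 30 min, and the median half-life 112 min at 30 min and 46.5 min at 120 min. In members with a mean count of at least 500 the median NTR was 0.104, 0.344, 0.556 and 0.736 from 30 to 120 min. With the labelled part scaled up, the log2 fold changes (120 against 15 min) of 9 named members changed sign: Zfp292 to 0.0507, Zfp9 to 0.157, Zfp574 to 0.144, Zfp217 to 0.243, Zfp445 to 0.0285, Zfp462 to 0.281, Zfp638 to 0.0298, Zfp809 to 0.0607 and Zfp106 to -0.00431. Of these, Zfp292 had been called. Uncalled values near 0 changed sign when 1 library was left out: Zfp706 ranged from -0.0741 to 0.0215 (positive without 15min A), Zfp277 from -0.0269 to 0.0110 and Zfp462 from -0.0977 to 0.0351 (both positive without 15min B or 120min B). Among the other values of named members under alternatives, 329 kept their direction and side of the threshold, 53 lost their call and 12 gained one. Depth limits members near the count minimum most.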
